A study of Rattus norvegicus with 10 samples.

Results

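The Zfp genes are the rat genes whose symbol is Zfp followed by a number, most of which encode zinc-finger proteins. Members were taken by that symbol pattern alone, and 156 of the 10184 genes in the deposited table matched it. RNA had been profiled in RCS, a line from a rat cartilage tumour whose cells keep many features of chondrocytes, and the design asks what loss of arylsulfatase L changes in it. The enzyme belongs to the sulfatases and resides in the Golgi. The groups were 5 ARSL knockout (KO) and 5 wild-type (WT) RCS libraries, both grown untreated in medium with fetal bovine serum and harvested 48 h after seeding. The labels call the libraries biological replicates but state neither the days of culture nor whether the KO cells are 1 clone or several, so genotype and origin of the line cannot be told apart. Values of the targeted gene were not analysed here, so no check of the labels by its level was made.

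Classical zinc fingers of the C2H2 type are small zinc-binding folds that read DNA in tandem arrays. Many mammalian members also carry a KRAB domain, which recruits the corepressor Trim28 and, through it, the histone methyltransferase Setdb1, and these proteins are best known for silencing retroelements and imprinted loci. Others act at promoters, such as Zfp148, Zfp143 and Zfp281. The symbol covers more than transcription factors. Zfp36 and Zfp36l1 bind AU-rich elements in mRNAs and bring in deadenylases, Zfp598 is a ubiquitin ligase that senses collided ribosomes, Zfp91 is a ubiquitin ligase and Zfp451 a SUMO ligase. Of the 156 members, 2 stood on a list of mRNA decay factors and 11 on a list of other roles outside transcription, so the name transcription factor does not hold for every member. In cartilage, Zfp219 is a partner of Sox9 at the Col2a1 gene and Zfp521 restrains Runx2, both known from the mouse.

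Reads per library over the listed genes ranged between 2065594 and 2591819, and all 10 libraries were similar in depth. On the first principal component, with 51.1% of the variance, the scores were 28.0 for WT 3, 26.8 for WT 4, 7.91 for KO 4 and -15.0 to -2.96 for the remaining 7. All 10 chondrocyte markers found in the table of 12 listed had more normalised reads in WT 3 and WT 4 than in every other WT library. Their summed level was 39599 to 54077 normalised reads in KO libraries (highest in KO 4), 70384 in WT 3, 69800 in WT 4 and 40749 to 43425 in WT 1, WT 2 and WT 5. Normalised reads are reads divided by the size factor of the library. No marker of the 10 was at 0 in any library, and Sox9 and Snorc were not analysed here. None of the 6 fibroblast or 3 endothelial markers listed had a row, while the macrophage list had 1 of 4, Cd68 at a mean of 3.98 normalised reads, and the epithelial list 1 of 4, Krt8 at 463.9 (limma adjusted p = 0.869). In bulk RNA, fewer cells of a kind and less RNA per cell cannot be told apart.

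Zfp genes were low in these cells. The members had a median of 31.8 normalised reads, against 64.9 over all genes of the table, and their means ran between 2.88 and 894, the value of Zfp91. Reads were not scaled by gene length, so these figures give the precision of each gene and not an order of molecules. In all, 113 members passed the filter on low values and were tested, among 8431 tested genes. The other 43 averaged 2.88 to 10.8 normalised reads, among them the imprinting regulator Zfp445 and the mRNA decay factor Zfp36, and are given by their values only. All members together took 0.452, 0.464, 0.458, 0.464 and 0.475% of the reads in KO 1 to KO 5, against 0.456, 0.464, 0.448, 0.462 and 0.445% in WT 1 to WT 5. These shares overlapped between the genotypes.

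None of the 113 tested members differed between KO and WT cells at an adjusted p under 0.05 (limma), where 96 of all 8431 genes did, a background of 1.14% (0.261% higher and 0.878% lower in KO). At an unadjusted p under 0.05 there were 4 members, which is 3.54% against 13.5% of all genes. Tested members were also weaker, with a median of 51.42 normalised reads against 88.45 over all tested genes, and the shares were not adjusted for this. With limma-voom on the recovered reads there were also 0 calls, and 5 members at an unadjusted p under 0.05. The differences were small and went both ways. KO minus WT was positive in 49 members and negative in 64, so 43.4% were positive against 52.1% of all genes. Its median was -0.016 over the members and 0.009 over all genes, on the deposited log2-like scale, on which a difference understates the fold change of weak genes. Individual members ranged between -0.43 and 0.29, with quartiles at -0.13 and 0.07. A p above the threshold does not show that a gene was unchanged. By voom, the 95% interval of the fold change lay within 2-fold for 101 of the 113 members, against 7333 of all 8431 genes.

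**Figure D1:**
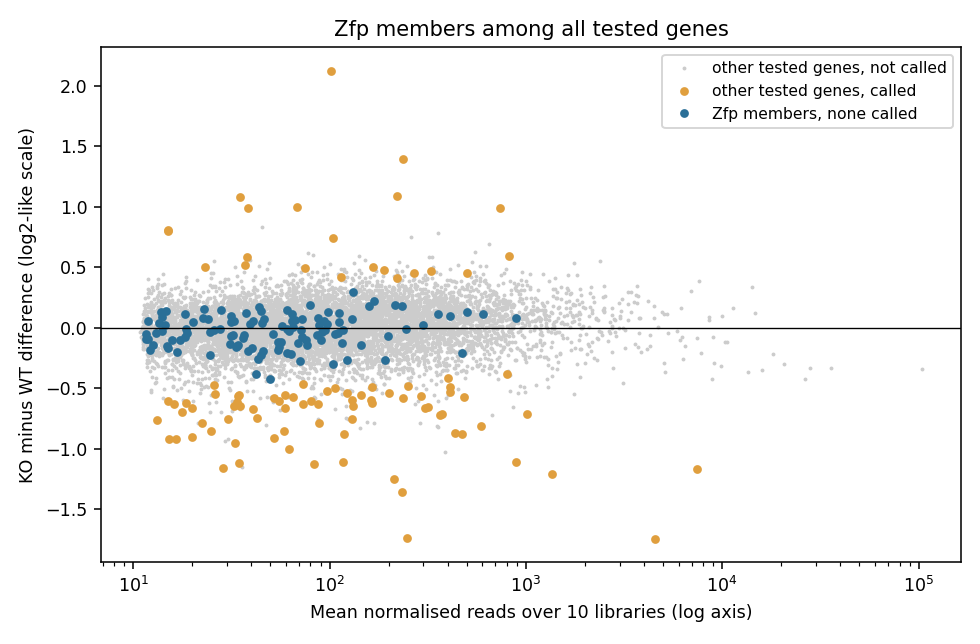
Difference KO minus WT on the log2-like scale (vertical axis) against mean normalised reads over the 10 libraries (horizontal log axis), 1 point per tested gene. Grey points are genes that were not called, orange points the called genes and blue points the 113 tested Zfp members, all of which lie between -0.43 and 0.29, while the tested genes as a whole reach -1.74 and 2.12.

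**Figure D2:**
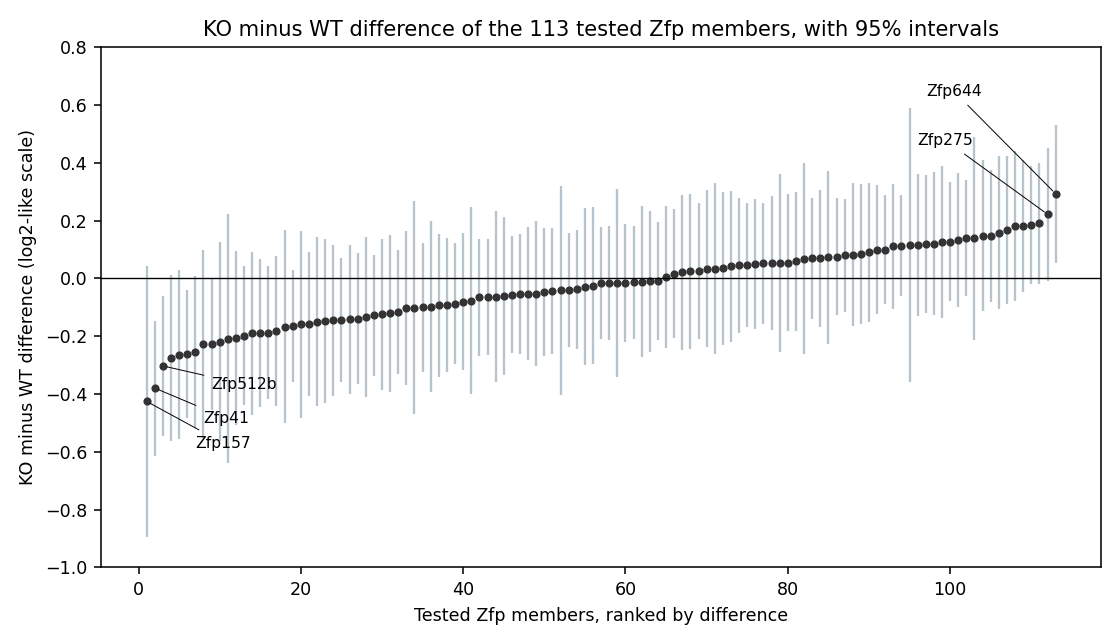
KO minus WT difference on the log2-like scale (vertical axis) for the 113 tested Zfp members in order of their difference (horizontal axis), with bars for the 95% confidence interval of limma. Most bars cross 0, and the ends of the row are Zfp157 at -0.43 and Zfp644 at 0.29.

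Zfp157 and Zfp68 were among the 4 members with the lowest differences and stand close together in the rat genome, with 2 protein-coding genes between them, neither in the table. Zfp367 was the member with the largest gap downward between the WT libraries. The 250 bases before the annotated start of these 3 genes are shown for that nearness and that gap, as RefSeq lists them for the rat assembly GRCr8, 5′ to 3′ on the strand of the gene. The first is at chr12:21384471-21384720 on the minus strand, the second at chr12:21139661-21139910 on the plus strand and the third at chr17:970646-970895 on the plus strand. Capitals mark matches to the motifs searched, on either strand.
Zfp157: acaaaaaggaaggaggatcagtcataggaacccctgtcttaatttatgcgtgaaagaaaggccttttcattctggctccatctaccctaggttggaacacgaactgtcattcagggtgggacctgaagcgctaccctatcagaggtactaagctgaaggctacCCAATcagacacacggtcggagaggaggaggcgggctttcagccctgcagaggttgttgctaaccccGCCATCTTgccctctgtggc
Zfp68: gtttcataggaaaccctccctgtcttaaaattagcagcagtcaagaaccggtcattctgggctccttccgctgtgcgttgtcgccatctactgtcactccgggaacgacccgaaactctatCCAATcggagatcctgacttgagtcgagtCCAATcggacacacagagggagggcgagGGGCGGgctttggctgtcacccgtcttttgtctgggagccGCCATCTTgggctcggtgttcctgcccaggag
Zfp367: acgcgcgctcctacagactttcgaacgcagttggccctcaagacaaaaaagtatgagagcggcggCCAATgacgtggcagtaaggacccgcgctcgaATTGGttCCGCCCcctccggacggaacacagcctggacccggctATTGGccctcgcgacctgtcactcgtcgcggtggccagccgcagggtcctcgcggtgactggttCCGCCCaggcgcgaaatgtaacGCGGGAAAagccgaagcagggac
In a global alignment the promoters of Zfp157 and Zfp68 shared 169 identical bases over 280 columns, or 76.8% of the 220 aligned bases. Both ended close to the start with the same YY1 match, written GCCATCTT on the gene's strand, and both held CCAAT. The Zfp68 promoter also held a GC box. The Zfp367 window had 29 CpG sites, against 7 for Zfp157 and 15 for Zfp68, and held an E2F match, written GCGGGAAA on the gene's strand. A match is a run of letters and not a shown binding site.

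RefSeq gave promoters for 146 members, with a median of 14 CpG sites in 250 bases, against 17 for the 8398 promoters of genes in the table and 5 for all 33469 promoters. Member promoters thus held fewer CpG sites than those of the table and more than the whole set. The motifs were searched on both strands. YY1 (AAGATGGC) was in 4.11% of member promoters, 2.41% of table promoters and 1.63% of all. E2F (TTTCCCGC, TTTGGCGC, TTTGGCGG or TTTCCCGG, which can share bases with a GC box) was in 6.85%, 5.09% and 2.77%. The GC box (GGGCGG) was in 47.3% of member promoters, 58.9% of table promoters and 30.5% of all, and the CCAAT box (CCAAT) in 37.0%, 36.1% and 34.0%. ETS (CCGGAAGT) was in 5.48%, 7.55% and 3.10%. The CRE (TGACGTCA) was in 3.43%, 3.05% and 1.59%, and the TATA box (TATAAA) in 6.85%, 6.01% and 12.9%. These shares are a description and were not tested. Of the 154 members placed on the chromosomes, 25 lay in 11 runs of adjacent Zfp genes of at most 3 genes.

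The member with the smallest p was Zfp41. Zfp41 had 31.1, 34.8, 42.5, 28.3 and 26.9 normalised reads in KO 1 to KO 5, against 55.8, 47.4, 53.6, 64.1 and 39.1 in WT 1 to WT 5. Only KO 3 and WT 5 made the groups overlap. The KO mean was 0.629 of the WT mean, with a log2-like difference of -0.38 (SE 0.109, limma adjusted p = 0.128). The voom log2 fold change had a 95% interval of -1.09 to -0.26.

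Zfp512b had 96.6, 91.2, 79.4, 94.7 and 83.4 normalised reads in KO 1 to KO 5, against 90.7, 108, 108, 152 and 139.5 in WT 1 to WT 5. WT 1 lay inside the KO range and the other 4 WT libraries above it. The difference was -0.30 (SE 0.114, limma adjusted p = 0.246). Zfp451, the SUMO ligase, had 165, 179, 138, 179.6 and 195 normalised reads in KO 1 to KO 5, against 206, 224, 204, 253 and 181 in WT 1 to WT 5. The overlap came from WT 5, which lay below KO 5. Its difference was -0.26 (SE 0.104, limma adjusted p = 0.278).

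Zfp644, whose human counterpart works with the Ehmt1 and Ehmt2 histone methyltransferases, had the highest positive difference. It had 175, 115, 125, 164 and 168 normalised reads in KO 1 to KO 5, against 106, 110.3, 124, 101 and 128 in WT 1 to WT 5. KO 1, KO 4 and KO 5 stood above every WT library, while KO 2 and KO 3 fell inside the WT range. The difference was 0.29 (SE 0.112, limma adjusted p = 0.251).

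The genotypes were apart in 1 member, Zfp94, or 0.885% of those tested, against 4.26% of all genes (2.4% with KO below WT). Zfp94 had 36.5, 35.8, 29.5, 40.0 and 38.6 normalised reads in KO 1 to KO 5, against 45.3, 43.6, 42.7, 40.2 and 48.6 in WT 1 to WT 5. The gap is the narrow one between KO 4 and WT 4, and the difference was -0.16 (SE 0.0905, limma adjusted p = 0.457). Mean normalised reads differed by at least 1.5-fold in 2 members, Zfp41 and Zfp157, or 1.77% against 6.17% of all genes. Neither this share nor that of Zfp94 was adjusted for the lower reads of the members.

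**Figure D3:**
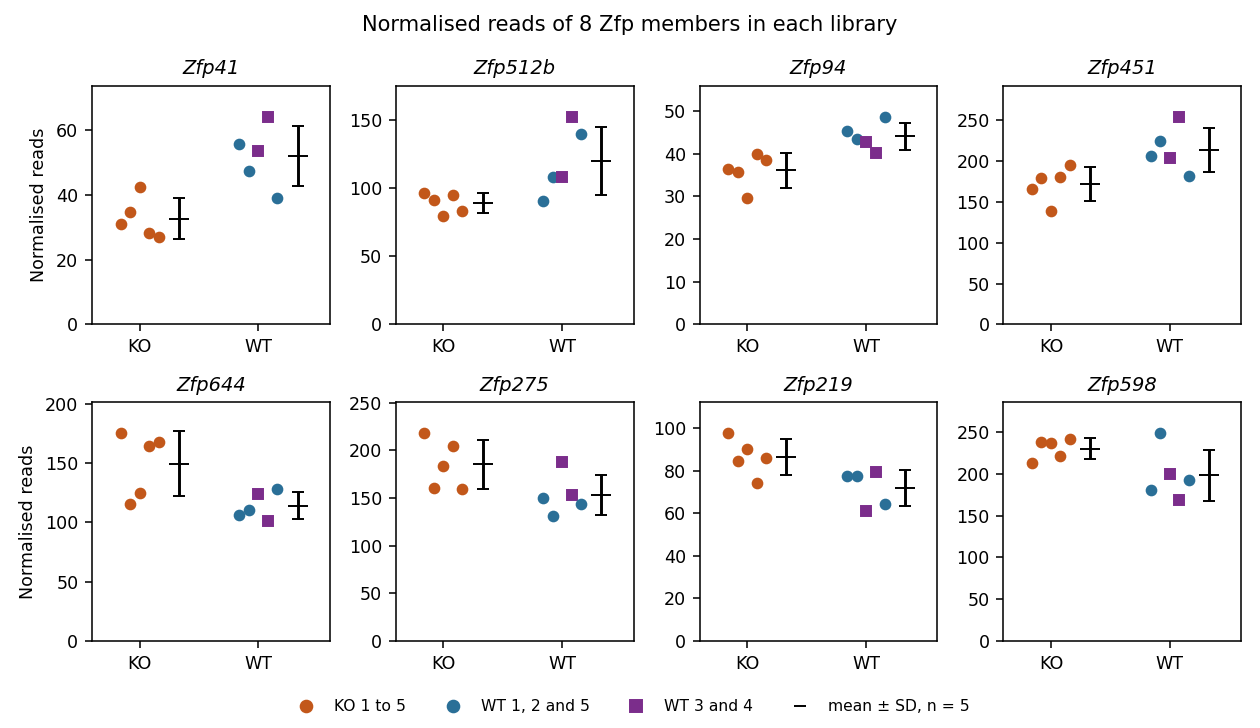
Normalised reads per library (vertical axis, starting at 0) of 8 Zfp members, with the 5 KO libraries left and the 5 WT libraries right in each panel, and the mean ± SD of each group. Purple squares are WT 3 and WT 4, and in each panel but that of Zfp94 the values of the genotypes overlap.

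Among the other members at the low end, Zfp68 had 50.5, 57.6, 53.5, 88.8 and 54.7 normalised reads in KO 1 to KO 5, against 77.6, 79.4, 88.6, 105 and 55.0 in WT 1 to WT 5. KO 4 stood with the WT libraries and WT 5 with the other KO libraries. The difference was -0.28 (SE 0.134, limma adjusted p = 0.391). Zfp717, Zfp84 and Zfp524 had differences of -0.26, -0.25 and -0.23, with limma adjusted p of 0.423, 0.391 and 0.537. Many Zfp genes have close relatives, and the sources used here do not say how the counting split reads shared between copies, so values of single members with near copies are uncertain.

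Several members at the high end had higher means in KO cells without passing the test. Zfp275 averaged 185 ± 26.1 normalised reads in KO and 153 ± 21.2 in WT (SD, n = 5 each), a difference of 0.22 (SE 0.107, limma adjusted p = 0.388). Zfp598, the sensor of collided ribosomes, averaged 230.5 ± 12.3 in KO and 198 ± 30.6 in WT, a difference of 0.19 (limma adjusted p = 0.418). Zfp385b, Zfp512, Zfp280d and Zfp449 had differences of 0.18, 0.18, 0.17 and 0.16, with limma adjusted p of 0.486 to 0.595. In each of the 6 genes the values of the genotypes overlapped.

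Members with a role in the skeleton were detected but none was called. Zfp219, the Sox9 partner, had 97.7, 84.7, 90.5, 74.2 and 86.1 normalised reads in KO 1 to KO 5, against 77.6, 77.4, 61.3, 79.3 and 64.5 in WT 1 to WT 5. KO 4 was below WT 1, WT 2 and WT 4, and the other KO libraries were above every WT library. The difference was 0.19 (SE 0.0952, limma adjusted p = 0.416). Zfp521 averaged 40.3 ± 11.7 normalised reads in KO and 38.2 ± 8.09 in WT, a difference of 0.03 (SE 0.127, limma adjusted p = 0.930). Zfp384, a regulator of matrix genes in bone-forming cells of the rat, averaged 48.1 ± 3.44 in KO and 44.2 ± 6.6 in WT (limma adjusted p = 0.751). Zfp467, a regulator of the choice between bone and fat cells in mouse stroma, had a difference of -0.10 (SE 0.172, limma adjusted p = 0.826).

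Of the 8 members with the most reads, 4 stood on the list of other roles outside transcription, namely Zfp91, Zfp706, Zfp106 and Zfp638. Zfp91 had 858, 959, 927, 915 and 933 normalised reads in KO 1 to KO 5, against 959, 974, 756, 799 and 864 in WT 1 to WT 5. WT 3 and WT 4 were its lowest libraries, and the difference was 0.08 (SE 0.0917, limma adjusted p = 0.724). Zfp706 averaged 632 ± 14.5 normalised reads in KO and 583 ± 45.2 in WT, a difference of 0.11 (limma adjusted p = 0.563). Zfp106, an RNA-binding protein needed by motor neurons in mice, averaged 524 ± 25.8 in KO and 479 ± 59.6 in WT (limma adjusted p = 0.575). Zfp638, which silences unintegrated retroviral DNA, averaged 427 ± 45.5 in KO and 394 ± 18.6 in WT (limma adjusted p = 0.645). That silencing is a role in transcription, so the list is not strict, and the roles of its other members were not tested here. Of the 11 tested members on this list, Zfp638 included, 7 had a positive difference, or 63.6% against 52.1% of all genes. Their median was 0.08, and none was called. For Zfp36l1, the decay factor, the means were 68.1 ± 10.6 in KO and 60.3 ± 7.23 in WT (limma adjusted p = 0.653). Zfp36, or tristetraprolin, had at most 4.62 normalised reads in a KO library and 6.34 in a WT library and was not tested.

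A list of promoter-binding members held 10, among them the corepressor Zfp703, so it is not strict for that role. Of these members, 9 were tested and none was called. Their median difference was -0.02, and 7 of the 9 were negative, so 22.2% were positive against 52.1% of all genes. Of the negative ones, Zfp703, Zfp143, Zfp148, Zfp281 and Zfp335 changed sign under some other settings, as did the positive Zfp131. Zfp148, which binds GC-rich promoters, averaged 244 ± 24.8 normalised reads in KO and 246 ± 19.5 in WT, and its voom log2 fold interval of -0.26 to 0.20 was among the narrow ones. Zfp335 averaged 94.0 ± 4.18 in KO and 95.9 ± 11.8 in WT, and Zfp281 60.5 ± 9.41 in KO and 60.7 ± 1.5 in WT. Zfp503 and Zfp217 had differences of -0.15 and -0.14, with limma adjusted p of 0.626 and 0.630. Zfp410, whose human counterpart activates CHD4, averaged 20.9 ± 3.18 normalised reads in KO and 19.5 ± 5.02 in WT (limma adjusted p = 0.869), and Zfp143 35.7 ± 11.2 in KO and 37.8 ± 6.4 in WT (limma adjusted p = 0.869). Zfp110 averaged 2.75 ± 1.46 in KO and 3.47 ± 2.52 in WT and was not tested. Zfp445, a KRAB protein that keeps imprinting marks, had 9.66, 15.2, 6.46, 14.6 and 8.97 normalised reads in KO 1 to KO 5, against 13.9, 10.6, 3.28, 8.6 and 12.7 in WT 1 to WT 5, and was not tested.

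WT 3 and WT 4 stood apart from WT 1, WT 2 and WT 5 in a smaller share of the members than of all genes. Both lay above the other WT libraries in 24 members, or 21.2% against 27.2% of all genes, and both below in 16, or 14.2% against 29.0%, so 40 members or 35.4% were outside the range of the other WT libraries against 56.2% of all genes. These libraries are set apart because of their expression, so the counts are a description with no test. Tested members had a median of 51.42 normalised reads, against 88.45 over all tested genes, and counting noise is larger in weak genes. The part of this in the smaller share was not tested. Among the 57 members that passed a stricter filter on low values, 11 lay above and 7 below. Of all 5770 genes under that filter, 1581 (27.4%) lay above and 1976 (34.2%) below. The members' values in these libraries were also more spread around each gene's mean, with an SD of 0.241 in WT 3 and 0.223 in WT 4 on the log2-like scale, against 0.156 to 0.184 in the other 8 libraries. Over all tested genes that SD was larger still, with 0.329 in WT 3 and 0.318 in WT 4, against 0.182 to 0.221 in the other 8.

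The upward gaps were led by Zfp703, a corepressor whose human counterpart is amplified in luminal breast cancer. Zfp703 had 398, 430.1, 356, 615 and 343 normalised reads in KO 1 to KO 5, against 361, 380.4, 729, 709 and 396 in WT 1 to WT 5. WT 3, WT 4 and KO 4 were the 3 highest libraries. Its KO minus WT difference was -0.21 (SE 0.201, limma adjusted p = 0.672), and 0.13 without WT 3 and WT 4. Leaving out these libraries gave 0 calls among 111 members and 157 among all 8382 genes (1.87%).

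Zfp157 had 34.4, 29.3, 48.0, 44.9 and 22.4 normalised reads in KO 1 to KO 5, against 37.5, 43.6, 98.5, 113 and 28.5 in WT 1 to WT 5. WT 3 and WT 4 alone were high, and the other WT libraries lay inside the KO range. The difference of -0.43 (SE 0.219, limma adjusted p = 0.418) was -0.03 without them. Its neighbour Zfp68 was also highest in WT 4 and higher in WT 3 than in the other WT libraries, by a small gap. Zfp248 had 37.2 and 25.8 normalised reads in WT 3 and WT 4, against 11.6 to 13.1 in the other WT libraries, and Zfp771 had 19.7 and 29.6, against 3.49 to 11.6. Zfp691 had 32.8 and 21.0, against 7.4 to 13.9. For Zfp358 the gap was smaller in proportion, with 107 and 109.9 against at most 86.7.

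The downward gaps were led by Zfp367. Zfp367 had 347, 380.1, 374, 252 and 459 normalised reads in KO 1 to KO 5, against 488, 475, 197, 208 and 371 in WT 1 to WT 5. WT 3, WT 4 and KO 4 were the 3 lowest libraries. The KO minus WT difference was 0.12 (SE 0.222, limma adjusted p = 0.849), -0.28 without WT 3 and WT 4, and -0.17 without KO 4 as well. Zfp131, a BTB zinc-finger protein, had 307, 355, 286, 235 and 334 normalised reads in KO 1 to KO 5, against 354, 306, 256, 235 and 340.4 in WT 1 to WT 5. It too was lowest in WT 4 and KO 4, with WT 3 next. Zfp763 had 2.19 and 9.56 normalised reads in WT 3 and WT 4, against 15.5 to 20.9 in the other WT libraries. Zfp93 had 50.3 and 50.7, against 63.9 to 84.6, and Zfp770 had 7.66 and 10.5, against 13.7 to 18.4.

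Zfp462, which acts in heterochromatin of mouse embryonic stem cells, had 39.7, 33.7, 36.9, 45.9 and 36.8 normalised reads in KO 1 to KO 5, against 61.0, 60.0, 39.4, 41.1 and 52.9 in WT 1 to WT 5. WT 3 and WT 4 lay inside the KO range and the other WT libraries above it. The difference was -0.23 (SE 0.107, limma adjusted p = 0.377), and -0.39 (limma adjusted p = 0.0752) without WT 3, WT 4 and KO 4, the smallest adjusted p that a member reached under any setting. Without these 3 libraries 9 of 110 members had an unadjusted p under 0.05, or 8.18% against 15.8% of all genes, and again none was called, against 300 of all 8376 genes (3.58%). The part of what sets these libraries apart in the KO and WT values was not tested.

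**Figure D4:**
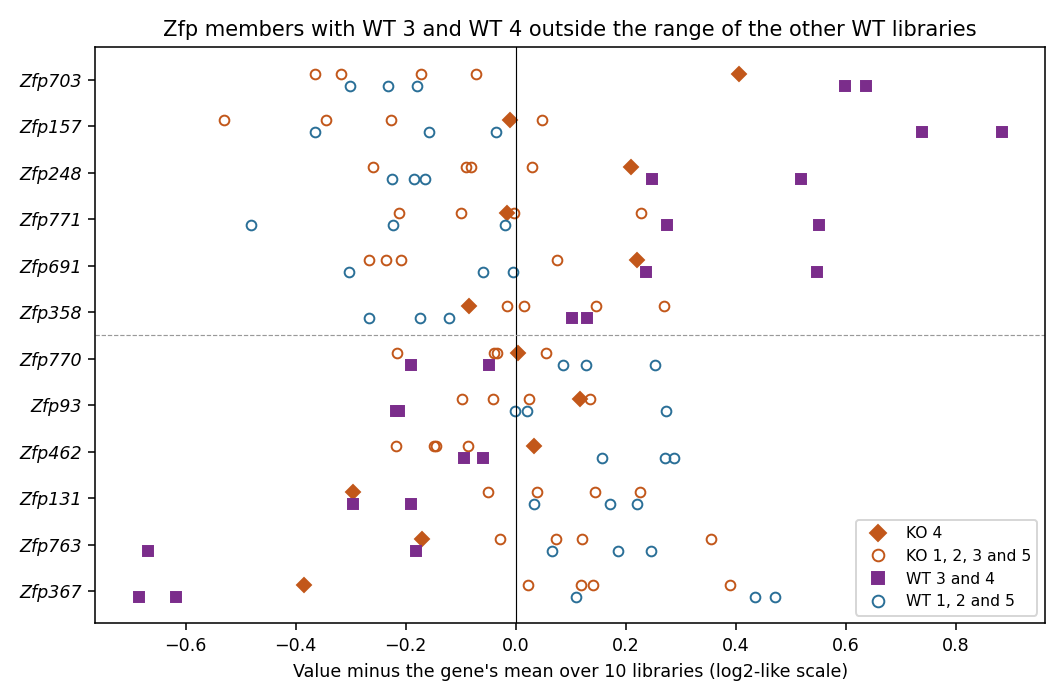
Value of each library minus the mean of the gene over the 10 libraries, on the log2-like scale, for the 12 Zfp members with the largest gaps between WT 3 and WT 4 and the other WT libraries. Filled diamonds are KO 4, which is the KO library furthest to the side of WT 3 and WT 4 in 6 members (Zfp703, Zfp248, Zfp691, Zfp367, Zfp131 and Zfp763) and not in the other 6 (Zfp157, Zfp771, Zfp358, Zfp462, Zfp93 and Zfp770).

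Replicates varied more than counting alone gives. The variance of reads around those expected from depth, over that of counting, had a median of 1.86 in KO and 1.78 in WT over the members. Over all tested genes it was 2.51 in KO and 3.51 in WT. At an equal spread beyond counting this ratio rises with reads. Tested members had a median of 51.42 normalised reads, against 88.45 over all tested genes, so the ratios do not show that members varied less. The standard error of the difference had a median of 0.113 over the members and 0.121 over all genes. On the fold scale, the voom interval lay within 1.5-fold for 51 of 113 members, against 4206 of all 8431 genes.

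The partners of KRAB zinc fingers were set beside the family from a list of 27 corepressor and heterochromatin genes, 22 of them tested. None was called, 15 differences were positive (68.2% against 52.1% of all genes) and the median was 0.09. Trim28 averaged 725 ± 53 normalised reads in KO and 777 ± 75.8 in WT (limma adjusted p = 0.679), and Setdb1 82.9 ± 6.63 in KO and 77.1 ± 14.8 in WT (limma adjusted p = 0.754). Atrx, a chromatin remodeller of heterochromatin, had the smallest p. Atrx had 121, 161, 132, 161 and 135 normalised reads in KO 1 to KO 5, against 78.4, 61.9, 98.5, 137 and 96.2 in WT 1 to WT 5, and only WT 4 overlapped the KO range. The difference was 0.47 (SE 0.137, limma adjusted p = 0.134), which is not a call. On leaving out 1 library the difference was 0.37 to 0.58 and the limma adjusted p 0.0414 (without WT 4) to 0.291. Atrx passed the threshold with array weights (0.59, adjusted p = 0.0106), without WT 3 and WT 4 (0.64, 0.0063) and without KO 4 as well (0.60, 0.0034). Zfp36 proteins recruit the CCR4-NOT deadenylase. Among 18 tested genes on a list of this complex and other genes of mRNA turnover, Elavl1 included, none was called and 9 differences were positive. Cnot3, with the smallest p of these, had a difference of -0.27 (SE 0.106, limma adjusted p = 0.269). Of 7 tested immediate early genes, Atf3, a stress-induced transcription factor, was the 1 that was called, against 1.14% of all genes. Atf3 had 15.0, 22.8, 22.2, 30.3 and 13.5 normalised reads in KO 1 to KO 5, against 34.9, 35.8, 58.0, 46.8 and 69.8 in WT 1 to WT 5, a difference of -0.64 (SE 0.139, limma adjusted p = 0.0387). That call was lost on leaving out KO 1, KO 2, KO 3, KO 5, WT 3, WT 4 or WT 5, with a limma adjusted p of up to 0.126. Over every setting that left out 1 library, the differences were -0.71 to -0.56. The Atf3 call was lost with voom too (adjusted p = 0.0541).

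Some zinc-finger genes under other symbols were called. Of 7 tested Zscan and Zkscan genes, which join a SCAN domain to the fingers, all had a negative difference, with a median of -0.33, and 2 were called. Over all tested genes 52.1% had a positive difference and 1.14% were called. Zscan26 fell, with 7.51, 17.4, 8.31, 8.78 and 6.28 normalised reads in KO 1 to KO 5, against 35.7, 30.0, 24.1, 28.7 and 20.1 in WT 1 to WT 5. The highest KO library stood below the lowest WT library, and the difference was -0.62 (SE 0.118, limma adjusted p = 0.0188). Zkscan3, a repressor of autophagy and lysosome genes in human cells, fell to 48.3, 23.9, 42.5, 35.1 and 29.6 normalised reads in KO 1 to KO 5, against 62.8, 66.8, 83.2, 68.8 and 63.4 in WT 1 to WT 5. Its groups were apart too, with a difference of -0.58 (SE 0.115, limma adjusted p = 0.0210). The KO mean was 0.348 of the WT mean for Zscan26 and 0.520 for Zkscan3. On leaving out 1 library the differences were -0.70 to -0.57 for Zscan26 and -0.65 to -0.51 for Zkscan3, but some calls were lost. That of Zscan26 was lost without KO 1, KO 3 or KO 5 (limma adjusted p of up to 0.0738) and that of Zkscan3 without KO 2, KO 3, KO 5 or WT 3 (limma adjusted p of up to 0.0818).

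These 2 genes are close neighbours in the genome, with 1 protein-coding gene between them, and Zscan12 lies next to Zkscan3. At least 3 of the 7 values thus come from 1 locus, and the places of the other tested Zscan and Zkscan genes were not checked. Zscan12 averaged 14.3 ± 5.1 normalised reads in KO and 31.5 ± 15.3 in WT and was not called (limma adjusted p = 0.162). Of 19 tested Zbtb genes, which join a BTB domain to the fingers, 1 was called, against 1.14% of all genes. Zbtb20, a repressor that acts in growth-plate chondrocytes of mice, fell to 229.7, 241, 214, 367 and 283 normalised reads in KO 1 to KO 5, against 434, 429.7, 535, 560.2 and 359 in WT 1 to WT 5. KO 4, the highest KO library, lay just above WT 5, the lowest WT library. The difference was -0.72 (SE 0.141, limma adjusted p = 0.0207), and the call was lost without KO 1, KO 2, KO 3, KO 5 or WT 3 (limma adjusted p of up to 0.0821), with differences of -0.83 to -0.65 on leaving out 1 library. Whether these families differ from the Zfp members in their response was not tested.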

How the data were processed

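Transcripts of 10 RCS libraries were sequenced, and per the submitters' processing notes the tools were bcl2fastq, STAR 2.7.11a and HTSeq and the build rn6. The authors deposited variance-stabilized log2-like values for 10184 genes, 813 without a symbol. Not given in the sources used here are the tool behind these values, the gene filter and the use of strand. A count of 0 reads stands at 4.42. Inverting the transformation gave whole reads for 100% of the values, within a tolerance of 1e-06 reads. Depth over the listed genes ran between 2065594 and 2591819 reads per library. In each library 1 read is worth between 0.872 and 1.09 normalised reads, which limits weak genes.

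Tests of KO minus WT covered genes averaging 1 or more above that floor, or about 10.7 normalised reads, on the deposited log2-like scale. They used limma 3.58.1 (R 4.3.3), an intensity trend, two-sided p-values and Benjamini-Hochberg adjustment over 8431 genes. Calls had an adjusted p under 0.05. P-values measure the spread between these samples. On simulated data (8431 genes, 200 changed, 5 simulations of KO minus WT) 23.3% of genes changed 1.5-fold, 76.4% of those changed 2-fold and 100% of those changed 4-fold were called, and 0.112% of the unchanged genes. The simulated counts had the same spread beyond counting for every gene and no library that stood apart. In the real data WT 3, WT 4 and KO 4 did stand apart, so these shares are not the rates of this experiment. Members and lists were chosen with earlier results of these data known. The text names members whose genotypes did not overlap, the 8 largest differences each way, the 8 with most reads, members of role lists and the 6 largest gaps of WT 3 and WT 4 each way, and from other lists the calls or otherwise the smallest p. A rule for the members most alike to a called member named none. For pairing, each gene's group mean was first taken off. The remaining deviations of KO and WT libraries of the same number correlated at -0.064, 0.069, -0.293, 0.587 and 0.263. The best correlation of each KO library with a WT library of another number was 0.062, 0.056, 0.277, 0.579 and 0.450. The numbers were therefore not taken to pair the libraries. Libraries of a group were compared by chi-square per degree of freedom over genes with at least 20 reads. The lowest value was 1.85, above sampling noise, and all were kept. Gene order and promoters came from RefSeq on GRCr8, with 98.7% of the members placed. Alternatives were a replicate block, array weights, voom, other filters, centring and scalings, and leaving out each library. Leaving out WT 3 and WT 4, alone or with KO 4, was chosen after seeing the data. Figures were drawn with matplotlib 3.10.9.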

Additional observations from a re-analysis of the deposited data

Results flagged for a closer look

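Zfp68 in KO 4 had 88.8 normalised reads, against 50.5 to 57.6 in the other 4 KO libraries. The gap to its nearest neighbour was 0.781 of the range of the group on the log2-like scale, above the 95% limit of Dixon's test for 5 samples. Chance alone passes this limit in about 5% of groups, and 1 of the 104 groups checked did.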

How the results depend on the processing

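No Zfp member was called under any of the 22 settings or the main one. Of 1030 values of 48 named members under these settings, 970 kept the sign of the difference, and 28 members kept it under all. Genes called over the whole table numbered 157 without WT 3 and WT 4, 300 without KO 4 as well, 219 with array weights, 60 with a stricter filter and 33 to 102 on leaving out 1 library, against 96. With the replicate block there were 136, and the block changed no call of a member. The members' median difference was -0.044 with no filter and between -0.042 (without KO 4) and -0.015 (without KO 1) on leaving out 1 library. The lists of WT 3 and WT 4 gaps changed with the stricter filter to 11 and 7 members, with fewer genes tested. The causes of the other changes were not tested.

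Differences of the opposite sign, none of them called, were as follows on the log2-like scale. Without WT 3 and WT 4 they were Zfp703 0.13, Zfp691 0.039, Zfp467 0.058, Zfp248 0.15, Zfp330 0.022, Zfp385a 0.010, Zfp335 0.020, Zfp131 -0.13, Zfp593 -0.025, Zfp93 -0.071, Zfp91 -0.019, Zfp367 -0.28 and Zfp763 -0.10. Without WT 3, WT 4 and KO 4 they were Zfp703 0.0059, Zfp248 0.092, Zfp330 0.026, Zfp335 0.027, Zfp148 0.00032, Zfp131 -0.052, Zfp93 -0.093, Zfp91 -0.019, Zfp207 -0.039, Zfp367 -0.17 and Zfp763 -0.036. With array weights they were Zfp248 0.046, Zfp771 0.14, Zfp335 0.014, Zfp131 -0.042, Zfp93 -0.035, Zfp207 -0.0065 and Zfp367 -0.14. With voom it was Zfp771 0.032 and with quantile normalization Zfp346 0.010 and Zfp281 0.0022. Leaving out 1 library, values ranged over Zfp131 -0.046 to 0.10, Zfp143 -0.12 to 0.011, Zfp148 -0.063 to 0.020, Zfp248 -0.14 to 0.044, Zfp281 -0.049 to 0.048, Zfp335 -0.075 to 0.013, Zfp346 -0.088 to 0.089, Zfp367 -0.042 to 0.25, Zfp385a -0.10 to 0.018, Zfp467 -0.21 to 0.029, Zfp521 -0.048 to 0.12, Zfp763 -0.010 to 0.22 and Zfp771 -0.17 to 0.023.

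Depth limits what can be seen in weak members, and the 43 under the filter on low values were not tested.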
